A study of Mus musculus with 54 samples.

Results

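The Egr family of transcription factors (Egr1, Egr2, Egr3, Egr4) and the Nab corepressors (Nab1, Nab2) were measured in Ba/F3-gp130 cells, as 6 of 19920 genes. For each gene the probe set annotated with its symbol alone was taken, and each of the 6 genes had 1 such gene-level probe set. These are mouse pro-B cells of the Ba/F3 line that express gp130, the receptor chain through which interleukin-6 signals. They need Hyper-IL-6, in which interleukin-6 is fused to its soluble receptor, and 10 ng/ml of it was in the growth medium. The 27 arrays fell into 9 groups of 3. Cells without a further construct (parental) were measured unstimulated, after 1 h with a GFP-PFC emulsion (50 µl per ml) and after 1 h with Hyper-IL-6 (100 ng/ml). Lines carrying a Cargo Internalization Receptor construct (CIR-1, CIR-2, CIR-3) were measured unstimulated and after GFP-PFC. Every group had been washed 4 times and held for 3 h without serum. The labels name no arm that received liquid without emulsion and leave out whether a line is 1 clone and whether replicate arrays stem from separate cultures, so p-values measure the spread between these arrays, which may be technical.

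Egr proteins are zinc finger factors that bind GC-rich sites. Their genes are immediate early genes: growth factors and cytokines switch them on through the ERK kinases, which act on serum response factor (SRF) and its ETS-family partners at the promoter, and transcription needs no new protein. SRF binds a sequence known as the CArG box. Nab1 and Nab2 have no DNA-binding domain of their own. They bind to Egr1, Egr2 and Egr3 and recruit repressor complexes such as NuRD, and Nab2 is itself known as an Egr-induced gene, which makes the pair a feedback arm. Egr4 lacks the domain that Nab proteins bind. In developing lymphocytes, Egr genes are known for their part in the response to antigen receptor signals.

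The DNA before the transcription start was read for the 4 genes that the sequence table holds (RefSeq, GRCm38.p6), as 250 bases upstream of each start. Egr2 had 5 annotated starts, and Egr4, Nab1 and Nab2 had 1 each. The stretches below are those with a CArG box in Egr2, with the other genes for comparison. Capitals mark matches to the CArG box, to the Egr site GCGNGGGCG and to TGACG, the core of a cyclic AMP response element, on either strand. No marked match overlapped another.
Egr2 start 2 (chr10:67537316-67537565, plus strand): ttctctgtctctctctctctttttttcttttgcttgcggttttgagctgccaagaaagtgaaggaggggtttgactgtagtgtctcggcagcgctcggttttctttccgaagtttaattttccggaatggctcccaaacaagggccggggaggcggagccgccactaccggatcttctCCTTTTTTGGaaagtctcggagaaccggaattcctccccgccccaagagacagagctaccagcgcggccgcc
Egr2 start 3 (chr10:67537619-67537868, plus strand): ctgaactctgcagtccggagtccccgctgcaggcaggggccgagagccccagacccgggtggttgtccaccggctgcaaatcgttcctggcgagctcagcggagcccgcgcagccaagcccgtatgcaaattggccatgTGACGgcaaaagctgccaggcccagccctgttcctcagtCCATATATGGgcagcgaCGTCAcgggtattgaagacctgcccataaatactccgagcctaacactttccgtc
Egr4 (chr6:85513590-85513839, minus strand): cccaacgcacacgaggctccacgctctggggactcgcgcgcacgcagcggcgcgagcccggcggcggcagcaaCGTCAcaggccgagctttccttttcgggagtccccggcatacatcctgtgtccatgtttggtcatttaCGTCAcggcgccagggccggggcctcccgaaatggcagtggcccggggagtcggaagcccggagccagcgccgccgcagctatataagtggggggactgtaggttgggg
Nab1 (chr1:52500449-52500698, minus strand): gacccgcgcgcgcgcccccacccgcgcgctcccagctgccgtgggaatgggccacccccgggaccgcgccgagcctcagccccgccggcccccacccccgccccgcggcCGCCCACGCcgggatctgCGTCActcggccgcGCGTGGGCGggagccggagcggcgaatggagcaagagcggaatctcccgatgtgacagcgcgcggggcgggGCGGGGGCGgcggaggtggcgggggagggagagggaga
Nab2 (chr10:127666704-127666953, minus strand): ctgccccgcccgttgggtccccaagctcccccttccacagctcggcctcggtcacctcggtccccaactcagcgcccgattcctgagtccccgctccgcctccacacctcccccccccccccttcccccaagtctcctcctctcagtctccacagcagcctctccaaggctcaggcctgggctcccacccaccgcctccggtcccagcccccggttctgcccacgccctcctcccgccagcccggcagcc

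A CArG box stood in 4 of the 5 Egr2 windows. In start 2 it read CCTTTTTTGG and in start 3 CCATATATGG, each at positions -72 to -63 from the start, and the windows of starts 4 and 5 overlap that of start 3 and hold the same box. Of 32851 windows of this length in the table, 1.47% held a CArG box. The windows of Egr4, Nab1 and Nab2 held none. Nab1 carried 3 matches to the Egr site, the first at positions -141 to -133, against 4.7% of all windows with at least 1. TGACG, found in 17.8% of windows, occurred 2 times in Egr2 start 3, 2 times in Egr4 and 1 time in Nab1. The ETS motif CCGGAA (12% of windows, not in capitals above) matched 3 times in Egr2 start 2, where 2 of the matches overlap, and in no other window of these genes. The STAT motif TTCNNNGAA (7.02%) and the complete element TGACGTCA (1.55%) matched in none of the 8 windows. A match describes the letters only, and the arrays do not measure binding.

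**Figure D1:**
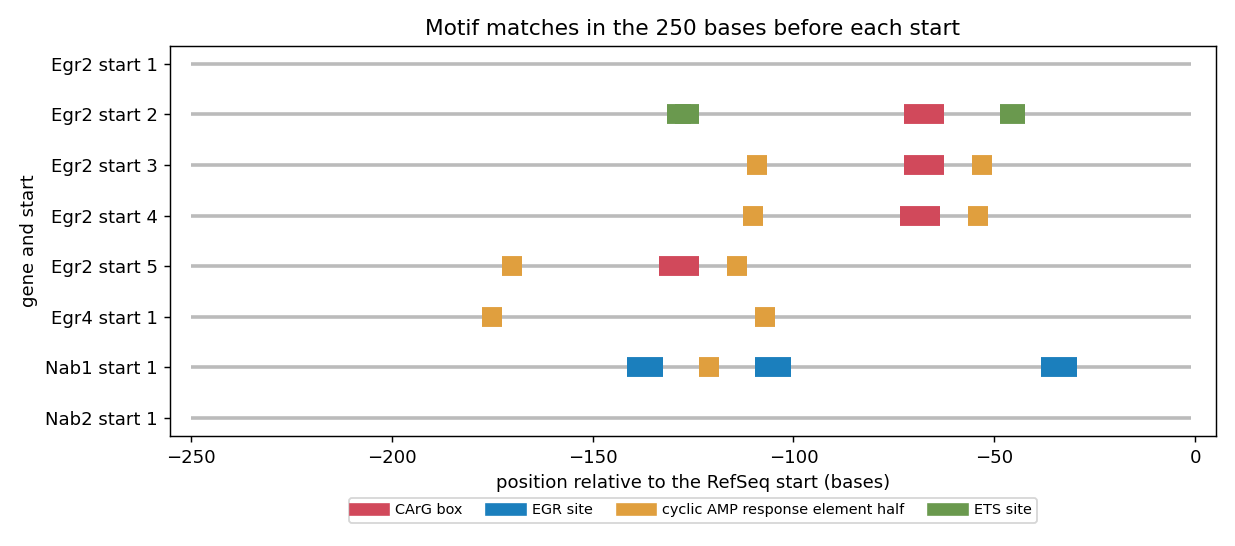
Motif matches in the 250 bases before each RefSeq start of Egr2, Egr4, Nab1 and Nab2, plotted by distance from the start in bases, with 1 row per start and colours for motifs. CArG boxes lie in 4 of the 5 Egr2 rows, the 3 Egr sites lie in Nab1, and the Nab2 row is empty.

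The 6 genes lay at different places in the range of signals. Values are log2 signals. Mean signals over the 27 arrays were 7.44 for Egr1, 7.56 for Egr4, 8.69 for Egr3, 8.91 for Egr2, 10.67 for Nab2 and 10.70 for Nab1. Array medians over all gene-level values lay between 7.52 and 7.65. Egr1 and Egr4 thus sat near the middle of all probe sets, while both Nab genes were higher. T cell markers had means of 5.74 (Cd3g), 6.86 (Cd4), 7.32 (Cd8a) and 7.57 (Cd3e), with Cd8a and Cd3e close to Egr1 and Egr4. Whether Egr1 and Egr4 were expressed above background was not tested. Signals of different probe sets are not on a scale per length, so these values do not rank the genes by transcript number. From the lowest to the highest array, Egr2 spanned 3.37 log2 units, a range at the 99.9th percentile of all genes. The other 5 genes spanned 0.44 (Egr3) to 0.72 (Nab2).

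**Figure D2:**
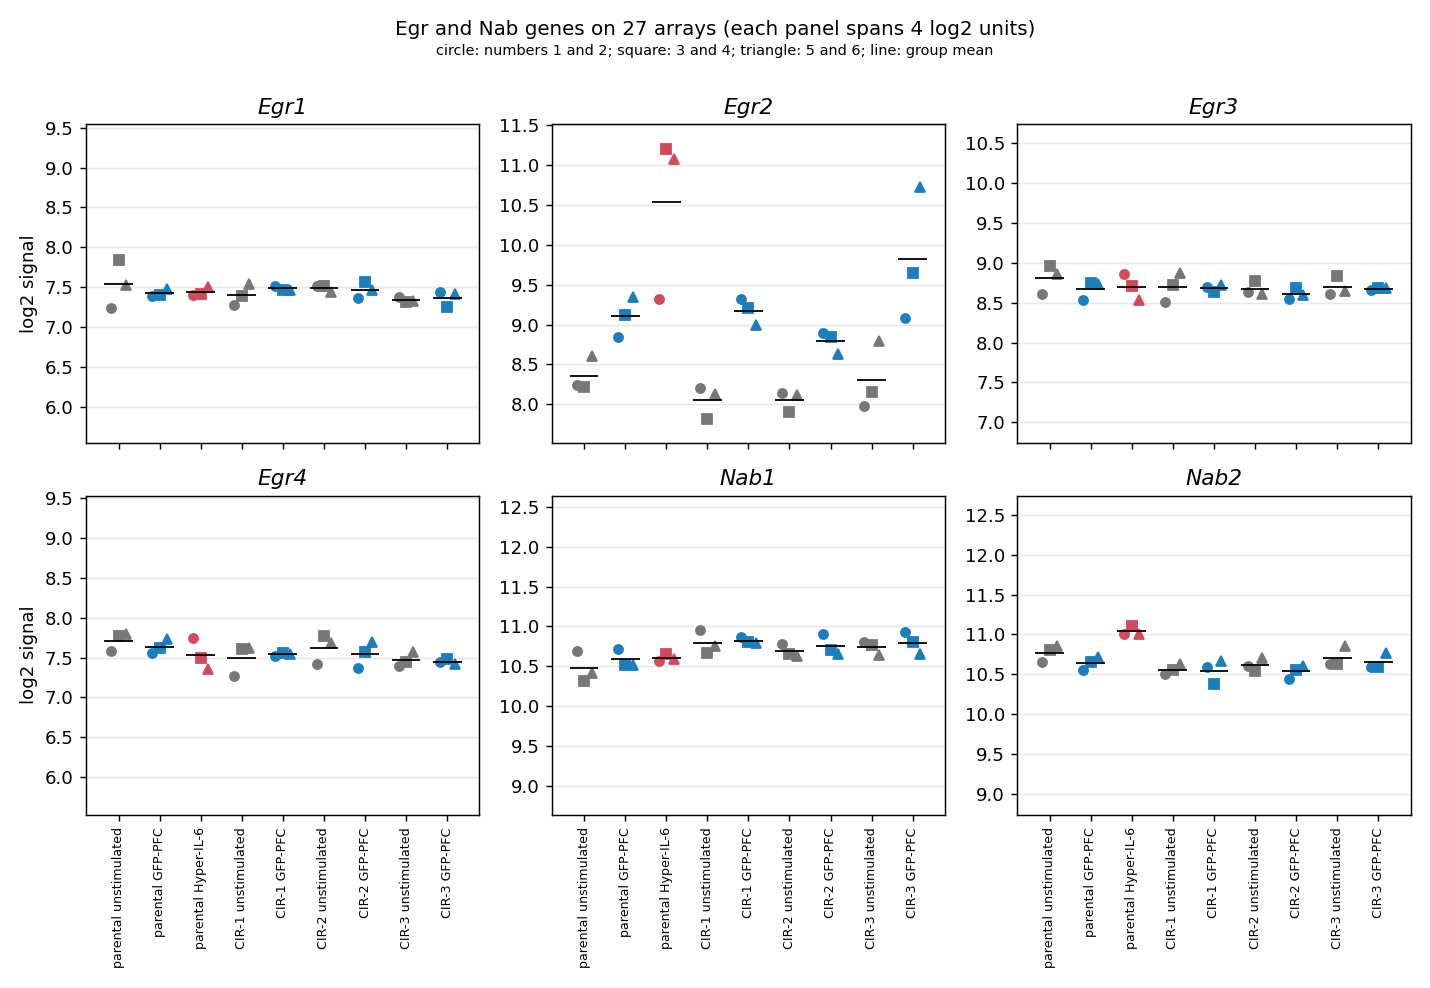
Log2 signal of the 6 genes on each of the 27 arrays by group, with 1 panel per gene (each spanning 4 log2 units), points for arrays (grey unstimulated, blue GFP-PFC, red Hyper-IL-6) and a line for the group mean. Egr2 runs from 7.82 to 11.20, with all GFP-PFC and Hyper-IL-6 arrays of a line above the unstimulated arrays of that line, while the other panels are nearly flat.

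As to the cells themselves, 6 of 11 measured pro-B markers lay above the lower quartile of the array (6.22 to 6.31) and 2, the antigen receptor chains Cd79a and Cd79b, above the array median. The B lineage genes Ebf1, Rag2, Dntt and Il7r had means between 5.27 and 6.01, below that quartile. Of 5 mast cell and basophil markers, 2 lay above the array median, Ms4a2 (8.37) and Gata2 (13.26), and Cpa3 lay below the lower quartile (5.55). Of 5 myeloid markers, 2 lay above the array median, Mpo (9.97) and Elane (8.22). The 2 measured erythroid markers, Klf1 (9.36) and Epor (9.05), also lay above it. Signals are from bulk RNA, in which fewer cells of a type and less RNA per cell cannot be told apart. Arrays numbered 1 and 2 in the labels differed from the later ones in 8119 genes (40.8%, limma adjusted p under 0.05, 8 unstimulated and GFP-PFC groups), among them Nab1 (0.19 higher), Egr3 (-0.13) and Egr4 (-0.17). Egr1, Egr2 and Nab2 did not pass in that comparison.

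The first comparison set Hyper-IL-6 against no stimulation in parental cells, the positive stimulation control. Egr2, a factor known from hindbrain and Schwann cell development and from lymphocytes, rose. Its signals in unstimulated parental cells were 8.24, 8.22 and 8.61, and after Hyper-IL-6 they were 9.32, 11.20 and 11.08. All 3 Hyper-IL-6 arrays were above all unstimulated ones, as for 4.85% of all genes, and Hyper-IL-6 array 2 was well below arrays 4 and 6. The mean difference was 2.18 (SE 0.36), 4.52-fold, with an adjusted p of 0.00133 (limma, Benjamini-Hochberg over 19920 genes). Egr2 was the 1 gene of the 6 that passed, against 0.773% of all genes (154). The fit took 1 spread for all groups, with a pooled SD of 0.49 for Egr2. The SD was 1.05 after Hyper-IL-6 and 0.22 in unstimulated parental cells. Fitted on the 6 arrays of this comparison alone, the same difference had an SE of 0.43 and an adjusted p of 0.199. Leaving out Hyper-IL-6 array 2 gave 2.78, and leaving out array 4 or array 6 gave 1.85 and 1.90 with adjusted p values of 0.0267 and 0.0231.

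Egr1, the founding member of the family and a widely used marker of ERK activity, did not pass. Its unstimulated signals were 7.24, 7.84 and 7.53, and its Hyper-IL-6 signals were 7.40, 7.41 and 7.50. The unstimulated arrays spread further apart than the group means did, and the difference was -0.10 (SE 0.097, 95% interval -0.30 to 0.10). That interval rests on the spread pooled over all groups (SD 0.12), while the unstimulated parental arrays had an SD of 0.30. It therefore sets no firm upper limit on a rise in signal at this time point. Whether Egr1 was above background was not tested. Without unstimulated array 3, the sign turned, to 0.05.

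Egr3, like Egr2 known from lymphocytes, differed by -0.11 (SE 0.097, 95% interval -0.31 to 0.09), and Egr4 by -0.17 (SE 0.11, 95% interval -0.39 to 0.05). Neither passed. Of the corepressors, Nab1 differed by 0.13 (SE 0.095, 95% interval -0.07 to 0.32). Nab2 had unstimulated signals of 10.66, 10.80 and 10.86 and Hyper-IL-6 signals of 11.01, 11.10 and 11.01. Its groups did not overlap, which held in this direction for 4.85% of all genes, and its difference of 0.27 (SE 0.082) had an adjusted p of 0.256 and did not pass. Without the arrays numbered 1 and 2, which leaves 2 arrays a group, Egr3 (-0.29, adjusted p = 0.0298), Egr4 (-0.34, adjusted p = 0.00686) and Nab1 (0.25, adjusted p = 0.0215) passed beside Egr2. In that setting 3673 of 19920 genes passed, against 154 with all arrays. Egr3, Egr4 and Nab1 also differed between arrays numbered 1 and 2 and later ones in the groups without Hyper-IL-6. The numbers of the Hyper-IL-6 arrays did not pair with the others, and the part of the array number in these calls was not tested.

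GFP-PFC was compared with no stimulation as the mean difference over the 4 lines. Egr2 rose and the other 5 genes did not pass. In parental cells Egr2 signals went from 8.24, 8.22 and 8.61 to 8.85, 9.12 and 9.34. CIR-1 arrays read 8.20, 7.82 and 8.13 unstimulated and 9.32, 9.21 and 8.99 after GFP-PFC. In each of these lines the GFP-PFC arrays lay above all unstimulated ones, as for 2.02% and 1.92% of all genes.

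CIR-2 arrays read 8.14, 7.90 and 8.12 for Egr2 unstimulated and 8.89, 8.85 and 8.63 after GFP-PFC. In CIR-3 the unstimulated signals were 7.98, 8.16 and 8.79 and the GFP-PFC signals were 9.08, 9.65 and 10.72. Groups again did not overlap in either line (2.99% and 2.56% of all genes in this direction), and CIR-3 array 6 was the highest of the 12 GFP-PFC arrays. The mean Egr2 difference over the 4 lines was 1.03 (SE 0.18), 2.04-fold, with an adjusted p of 0.00915 (limma). Of all genes, 0.221% (44) passed in this comparison, which shares the unstimulated parental arrays with the Hyper-IL-6 comparison. Egr2 was higher in 12 of 12 pairs of consecutively numbered arrays within a line, by 0.51 to 1.93, as were 1.33% of all genes.

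In this comparison the other 5 genes differed by between -0.07 (Nab2) and 0.06 (Nab1). Nab1 was higher in 11 of 12 pairs, by a median of 0.04, and 3.29% of all genes were higher in at least 11 pairs. Its difference had a 95% interval of -0.03 to 0.16. Egr1 differed by -0.01 (95% interval -0.11 to 0.09). A rise in signal above 0.09 lies outside this interval, which rests on the spread pooled over all groups. Egr3 differed by -0.06 (95% interval -0.16 to 0.04) and Egr4 by -0.03 (95% interval -0.14 to 0.08). For Nab2 the interval was -0.15 to 0.02.

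**Figure D3:**
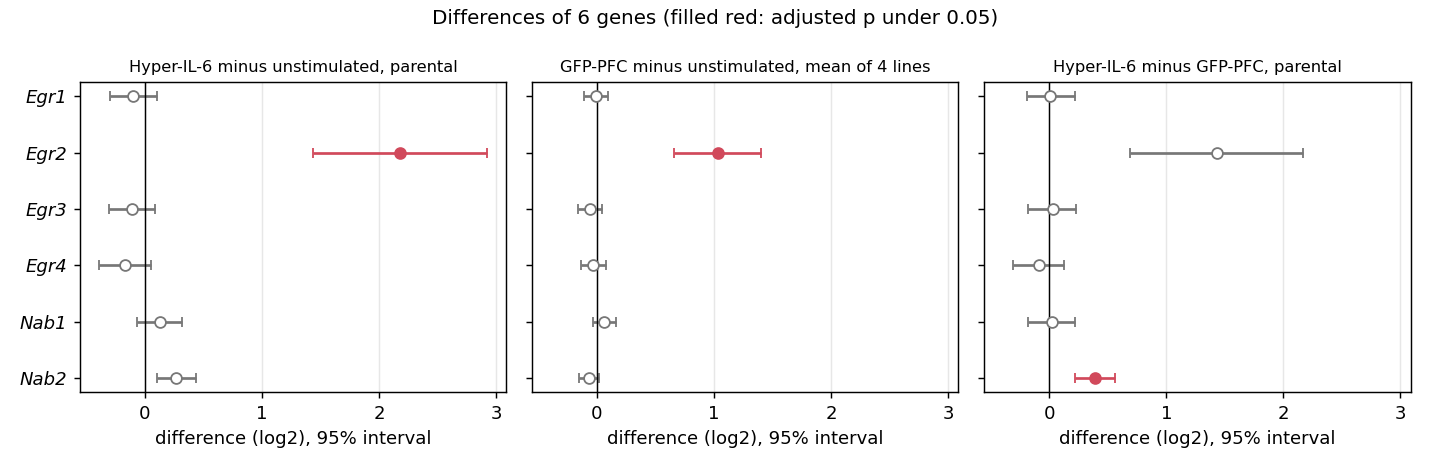
Differences of the 6 genes on the log2 scale with 95% intervals (x axis) in 3 comparisons, with filled red points for adjusted p under 0.05. Egr2 passes after Hyper-IL-6 (2.18) and after GFP-PFC (1.03), and Nab2 passes between the stimuli (0.39).

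Taken line by line, the Egr2 difference after GFP-PFC was 1.51 for CIR-3, 1.12 for CIR-1, 0.75 for the parental line and 0.74 for CIR-2, each with an SE of 0.36. None of the 6 genes passed in a single line, where limma called 0 genes in all (0% in each line) and 781 (parental), 489 (CIR-1), 264 (CIR-2) and 427 (CIR-3) genes had an unadjusted p under 0.05. Whether the GFP-PFC difference varied among the lines was asked with an F-test, which called 0 genes (0%, with 187 at an unadjusted p under 0.05) and gave Egr2 an unadjusted p of 0.393. The array numbers were also entered as a block without the Hyper-IL-6 arrays, a setting that was not planned. There Egr2 in CIR-3 had an adjusted p of 0.0196, as 1 of 19 genes that passed. Without CIR-3 array 6 its CIR-3 difference was 1.06. Over the 3 CIR lines the mean Egr2 difference was 1.12 (SE 0.21, adjusted p = 0.0288), where 0.0803% of all genes passed. Leaving out 1 of the 18 arrays at a time gave differences of 0.97 to 1.24, and in 13 cases the call was lost, with adjusted p values of 0.0509 to 0.0935.

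The levels of Egr2 by group ran from parental Hyper-IL-6 (10.53 ± 1.05, SD, n = 3) through CIR-3 GFP-PFC (9.82 ± 0.83), CIR-1 GFP-PFC (9.17 ± 0.17), parental GFP-PFC (9.10 ± 0.25) and CIR-2 GFP-PFC (8.79 ± 0.14) to the unstimulated groups. Those were 8.36 ± 0.22 in parental cells, 8.31 ± 0.43 in CIR-3, 8.05 ± 0.20 in CIR-1 and 8.05 ± 0.13 in CIR-2. Arrays of neighbouring groups in this order overlapped, except that every CIR-2 GFP-PFC array (8.63 and above) lay over every unstimulated parental array (8.61 and below).

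Hyper-IL-6 and GFP-PFC were also compared with each other in parental cells. Nab2, the corepressor known to be induced by Egr factors, was higher after Hyper-IL-6. Its signals were 11.01, 11.10 and 11.01 after Hyper-IL-6 and 10.56, 10.65 and 10.72 after GFP-PFC, with no overlap (6.08% of all genes in this direction). The difference was 0.39 (SE 0.082), 1.31-fold, with an adjusted p of 0.0201 (limma), and Nab2 was the 1 gene of the 6 to pass, against 0.507% of all genes. Without GFP-PFC array 2 or 4, or Hyper-IL-6 array 4 or 6, the difference was 0.35, 0.40, 0.36 and 0.41, and the adjusted p was 0.206, 0.0878, 0.195 and 0.0976. Values averaged from the exon-level data gave 0.43 with an adjusted p of 0.0674, and arrays quantile normalized again gave an adjusted p of 0.0719. From unstimulated cells, Nab2 lay 0.27 higher after Hyper-IL-6 and differed by -0.13 after GFP-PFC, and neither of those differences passed.

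Egr2 was 1.43 higher after Hyper-IL-6 than after GFP-PFC (SE 0.36, adjusted p = 0.0922) and did not pass. Hyper-IL-6 array 2, at 9.32, lay just below the highest GFP-PFC array, at 9.34. Without it the difference was 2.04 with an adjusted p of 0.00024, and 155 genes passed in all, against 101 with it. The 4 remaining genes differed by between -0.09 (Egr4) and 0.03 (Egr3).

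The exon-level data split each gene into single probe sets, 34 for the 6 genes. All 5 Egr2 probe sets were higher after Hyper-IL-6, by 1.12 to 3.30, and 4 passed (0.145% of all exon-level probe sets did). After GFP-PFC all 5 were again higher, by 0.37 to 1.67, and 2 passed (0.0264% of all). Probe set 10363738 read 8.58, 7.80 and 8.78 in unstimulated parental cells and 10.42, 12.34 and 12.10 after Hyper-IL-6. Probe set 10363736 moved least, from 8.38, 8.81 and 8.84 to 9.07, 10.28 and 10.04. Measured against the mean of the other Egr2 probe sets on the same array, 10363736 was relatively lower, with a difference of -1.48 (SE 0.235, adjusted p = 0.0234) after Hyper-IL-6 and -0.91 (SE 0.117, adjusted p = 0.00247) after GFP-PFC. Under the same test 10363738 was relatively higher after GFP-PFC (0.70, SE 0.11, adjusted p = 0.0301). Of 209838 probe sets, 0.0176% and 0.0114% passed in the respective comparisons, and the test was chosen after these data were seen.

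Nab2 had 11 exon-level probe sets, and none passed (0.091% of all exon-level probe sets did between the stimuli). Against GFP-PFC, 10 of 11 were higher after Hyper-IL-6, and they ranged from -0.27 to 1.32. Probe set 10373320 read 10.05, 10.47 and 10.28 after Hyper-IL-6 and 8.45, 9.10 and 9.28 after GFP-PFC, a difference of 1.32 (SE 0.26, adjusted p = 0.0521). Probe set 10373323 read 11.14, 11.02 and 11.13 after Hyper-IL-6 and 11.25, 11.55 and 11.30 after GFP-PFC. Its difference of -0.27 (SE 0.15, unadjusted p = 0.0972, limma) did not pass. Set against the mean of the other Nab2 probe sets, none of the 11 passed between the stimuli (0.0186% of all did), with a lowest adjusted p of 0.246. On data simulated with independent noise, that test found 33% of single probe sets shifted by 1 log2 unit after Hyper-IL-6 and 83% of those shifted by 2. The RefSeq models of Nab2 and Stat6 overlap by position, with strand not considered. Stat6 differed by 0.02 (SE 0.077) between the stimuli, and whether the overlap affects any Nab2 probe set was not tested. None of the probe sets of Egr1 (3), Egr3 (4), Egr4 (2) and Nab1 (9) passed in these comparisons.

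**Figure D4:**
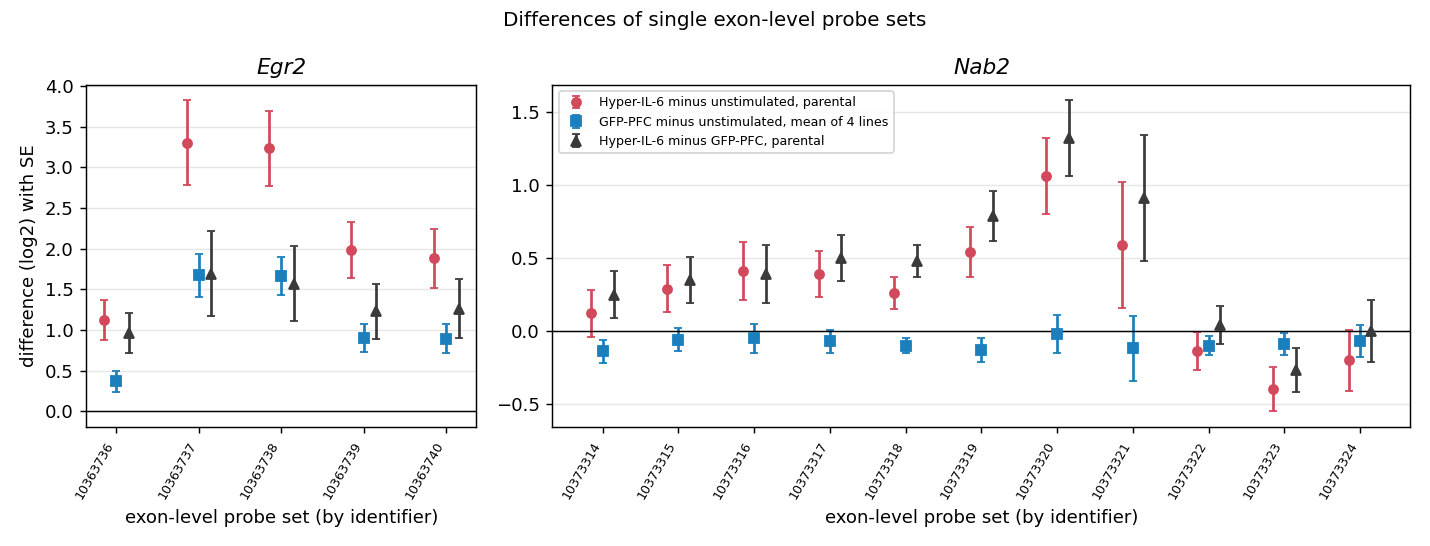
Differences of single exon-level probe sets of Egr2 and Nab2 on the log2 scale with SE (y axis) in 3 comparisons, ordered by probe set identifier. All 5 Egr2 probe sets lie above 0 in each comparison, and Nab2 probe sets range from -0.27 to 1.32 between the stimuli.

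The lines were also compared at rest, where the effect of a construct cannot be told apart from other differences between lines. Apart from the parental cells, the labels name no line without a CIR construct, such as one given an empty vector. Unstimulated signals of Nab1 were 10.69, 10.32 and 10.42 in parental cells, 10.96, 10.67 and 10.76 in CIR-1, 10.78, 10.66 and 10.63 in CIR-2, and 10.80, 10.77 and 10.64 in CIR-3. Parental array 1 overlapped the CIR arrays, and arrays numbered 1 were the highest of each line. Against parental cells Nab1 was higher by 0.32 for CIR-1, by 0.26 for CIR-3 and by 0.21 for CIR-2, each with an SE of 0.095, with adjusted p values of 0.105, 0.238 and 0.541 in that order, and did not pass. None of the 6 genes passed in these comparisons, where 1.73% of all genes did in CIR-1, 1.49% in CIR-3 and 1.2% in CIR-2.

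When the array numbers entered the model as a block of 3 levels, Nab1 passed in CIR-1 (adjusted p = 0.00532) and CIR-3 (adjusted p = 0.0301) but not in CIR-2 (adjusted p = 0.113). The block raised the calls over all genes from 344 to 701 in CIR-1, from 297 to 658 in CIR-3 and from 240 to 492 in CIR-2. The blocked F-test among the 4 unstimulated lines gave Nab1 an adjusted p of 0.0149, against 0.253 without it. That test called 1030 genes with the block and 561 (2.82%) without it. Without the Hyper-IL-6 arrays, whose numbers did not pair with the others, the blocked adjusted p values were 0.0016 in CIR-1, 0.0102 in CIR-3 and 0.0471 in CIR-2, where 962, 1102 and 674 genes passed. Leaving out unstimulated parental array 1 also let Nab1 pass, at 0.43 in CIR-1 (adjusted p = 0.0151) and 0.37 in CIR-3 (adjusted p = 0.0252), and let Egr1 pass in CIR-3 (-0.35, adjusted p = 0.0191). Over all genes, leaving out that array raised the calls from 344 to 404 in CIR-1 and from 297 to 1642 in CIR-3. Compared array by array at the same number, Nab1 was higher in the CIR line in 9 of 9 unstimulated comparisons (by 0.09 to 0.45), as were 4.75% of all genes, and in 9 of 9 after GFP-PFC (by 0.13 to 0.28), as were 5.15%. After GFP-PFC none of the 6 genes passed against parental cells (1.64%, 1.17% and 1.24% of all genes did), and Nab1 in CIR-1 differed by 0.23 (adjusted p = 0.419, or 0.0217 with the block and without the Hyper-IL-6 arrays, where 859 genes passed). The 3 CIR lines share the parental arrays, so these are not 9 independent comparisons.

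**Figure D5:**
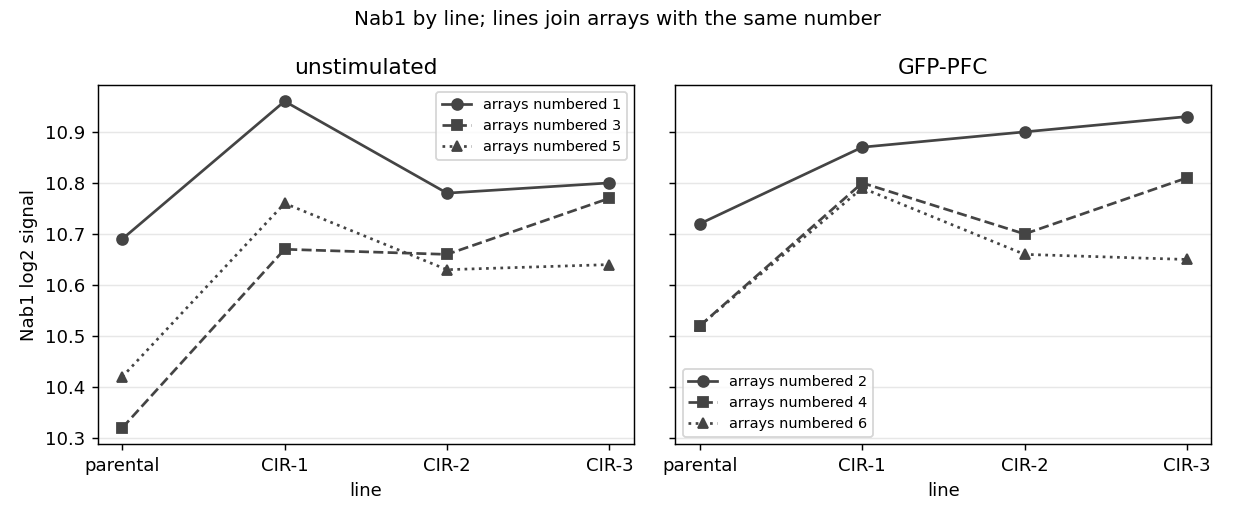
Nab1 log2 signal (y axis) in the 4 lines, unstimulated and after GFP-PFC, with lines joining arrays of the same number. Every CIR array lies above the parental array of its number, by 0.09 to 0.45 unstimulated and 0.13 to 0.28 after GFP-PFC.

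Nab2 ran the other way at rest, lower in all 9 number-matched comparisons, with differences of -0.26 to -0.01, as were 3.63% of all genes. Against parental cells its differences were -0.21 for CIR-1, -0.15 for CIR-2 and -0.07 for CIR-3, each with an SE of 0.082, and none passed. With the unplanned block without the Hyper-IL-6 arrays it passed in CIR-1 (adjusted p = 0.0332). Egr4 differed by -0.21, -0.09 and -0.24 (SE 0.11 each), and with that block it passed in CIR-3 (adjusted p = 0.0406). Egr1 differed by -0.14, -0.05 and -0.20 (SE 0.097 each), and Egr3 by between -0.14 and -0.10. Egr2 differed by between -0.30 and -0.05 (SE 0.36 each).

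Genes around the Egr-Nab circuit were read from lists chosen with earlier results of these data known. The counts below describe the listed genes and do not test the lists. Of 14 measured genes of the ERK cascade and its SRF and ETS regulators, which act upstream of Egr genes, 0 passed after either stimulus, with medians of 0.05 after Hyper-IL-6 and 0.02 after GFP-PFC, against -0.01 over all genes in both. Among 29 other immediate early genes, 13 rose after Hyper-IL-6 and 4 after GFP-PFC, and none fell. Of all genes, 0.733% passed as higher and 0.0402% as lower after Hyper-IL-6, so few falls were called anywhere. After GFP-PFC the shares were 0.186% and 0.0351%. The 13 included Junb (1.46, SE 0.12), an AP-1 subunit, and Zfp36 (2.97, SE 0.28), which promotes the decay of unstable transcripts. After GFP-PFC the 4 were Ier2, Fosl1, Myc and Plk3 (0.40 to 1.03). List medians were 0.86 and 0.18.

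ERK feedback genes, the phosphatases and Sprouty proteins that restrain the pathway, rose in 5 of 12 cases after Hyper-IL-6 and 3 of 12 after GFP-PFC, with medians of 0.56 and 0.19. Dusp6, the phosphatase of ERK, rose by 1.44 (SE 0.32) and 1.28 (SE 0.16). Of all genes, 0.733% rose after Hyper-IL-6 and 0.186% after GFP-PFC. Of 27 measured genes described as Egr targets, 6 rose after Hyper-IL-6 and 0 after GFP-PFC, and none fell. Those 6 were Socs3, Id2, Icam1, Socs1, Bcl6 and Vegfa. Socs3 (3.06, SE 0.28), the feedback inhibitor of gp130, and Bcl6 are also known targets of STAT3. Whether Egr factors raised any of the 6 was not tested. None of 13 NuRD genes, the repressor complex that Nab proteins recruit, passed, with differences of -0.10 to 0.27 after Hyper-IL-6. Of 12 other zinc finger genes of GC-rich sites, 1 rose after GFP-PFC, Klf11 (0.27, SE 0.046), and 0 passed after Hyper-IL-6.

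Over the 27 arrays, the genes whose signals followed Egr2 most closely were Tnf (Pearson r = 0.941, Spearman rho = 0.882), Nfkbiz (0.924 and 0.853) and Tiparp (0.913 and 0.897). For Nab2 they were Arid5a (0.849 and 0.72), Ppfibp1 and Ier3, and for Nab1 Fbxl5 (0.918 and 0.887), Bbx and Armc8. These correlations describe arrays that share stimulation and array number, and carry no test. Among the 6 genes themselves, r was highest between Egr3 and Egr4 (0.628) and lowest between Egr4 and Nab1 (-0.724). Between Egr2 and Nab2 r was 0.549 (rho 0.312), and between Egr1 and Egr2 it was -0.05. Genes that differed between arrays numbered 1 and 2 and the later ones include Egr3, Egr4 and Nab1, and the part of the array number in these correlations was not tested.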

How the data were processed

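RNA of Ba/F3-gp130 cells was hybridised to 27 Affymetrix mouse arrays. Gene-level and exon-level values were deposited as the output of core analyses in Affymetrix Expression Console, per the labels. Program version, algorithm, normalization and build are not given in the sources used here. The deposited values, 2.97 to 14.9 at gene level, were taken as log2 signal, and folds rest on that reading.

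Of 35556 gene-level probe sets, 21789 had 1 symbol and gave 19920 genes, by the probe set with the highest mean. In R 4.3.3, limma 3.58.1 was fitted with 1 mean per group over 27 arrays, two-sided, with Benjamini-Hochberg adjustment over all genes and a threshold of 0.05. F-tests asked for differences among lines. The text names all 6 genes and at most 4 passing genes of a list (6 for Egr targets, a list named in full after its values were seen). Members and lists were chosen with earlier results of these data known. With 3 arrays a group, their number limits the precision.

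Array numbers were taken to pair unstimulated and GFP-PFC arrays, since deviations from group means correlated in all consecutive pairs within a line (r 0.283 to 0.633) and all same-numbered pairs (0.136 to 0.763 and 0.211 to 0.615). Hyper-IL-6 arrays did not pair (-0.463 to -0.201). The labels do not state a pairing. The comparison of a probe set with the others of its gene was added after seeing the data. limma's diffSplice F-test was run first for that purpose and dropped, because on simulated data it called 103 unchanged genes, against 6 with the test used. On values simulated with independent normal noise and 1 SD per gene, the gene-level fit recovered 98% of genes changed by 1 log2 unit after Hyper-IL-6. The simulations held no array-number effect and no unequal spread between groups, so this share does not give the power for Egr2. Alternatives were the block, the compared arrays alone, exon-level values, a filter on dim genes, renormalization, array weights, an intensity trend, other probe sets, and leaving out arrays.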

Additional observations from a re-analysis of the deposited data

How the results depend on the processing

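Egr2 kept its direction in every setting run after Hyper-IL-6 (2.17 to 2.73, and 1.85 to 2.78 leaving out 1 array). The same held after GFP-PFC over 4 lines (1.03 to 1.10, and 0.91 to 1.12). Its call was lost only after Hyper-IL-6 on the compared arrays alone, where the SE was 0.43 against 0.36. The Hyper-IL-6 arrays had an SD of 1.05 against 0.49 pooled over all groups, and the part of this in the lost call was not tested. Adjusted p values after GFP-PFC were at most 0.0244. Where the number of the 6 genes that passed moved, the cause was not tested unless stated.

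After Hyper-IL-6 (1 gene in the fit reported), 2 passed with the replicate block (325 of all genes), 0 on the compared arrays alone (31), 5 with array weights (3468) and 4 without arrays numbered 1 and 2 (3673). Between Hyper-IL-6 and GFP-PFC (1), 2 passed with the block (251 of all genes), 0 on the compared arrays (66), 0 on exon-level values, 0 after renewed quantile normalization and 2 with array weights (1927), and 0 to 2 leaving out 1 array. Without arrays numbered 1 and 2 (236 of all genes), Egr2 passed between the stimuli, at 1.91 (limma adjusted p = 0.00173). Nab2 did not pass in that setting, at 0.37 (adjusted p = 0.107). The blocked adjusted p values were 0.028 for Nab2 after Hyper-IL-6 and 0.0254 for Egr2 between the stimuli, with numbers that do not pair there. Among CIR-1, CIR-2 and CIR-3 against parental cells at rest (0 each), 1, 0 and 1 passed with the block, 2, 1 and 2 with the block without Hyper-IL-6 arrays, 1, 1 and 3 with array weights (575, 940 and 3803 of all genes), and 1, 1 and 3 without arrays numbered 1 and 2 (471, 621 and 3233). Leaving out 1 array gave 0 to 1 in CIR-1 and 0 to 2 in CIR-3. The F-test at rest (0) gave 1 with either block, with array weights (2613 of all genes) and without arrays numbered 1 and 2 (1843), and 0 to 1 leaving out 1 array. CIR-1 against parental cells after GFP-PFC (0) gave 1 with array weights (910 of all genes) and with the block without Hyper-IL-6 arrays. GFP-PFC against no stimulation within CIR-3 (0) gave 1 with that block, and over the mean of 3 CIR lines (1) it gave 0 to 1 leaving out 1 array. The block changed no other call of the 6 genes.

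In other settings 24 of 910 values turned sign among differences that had not passed, and none of 38 among those that had. They included Nab1 between the stimuli on exon-level values (-0.04), Egr1 after renewed normalization (0.02 after GFP-PFC, -0.01 between the stimuli), and Egr3 between the stimuli with array weights (-0.03) and without arrays numbered 1 and 2 (-0.13). Leaving out 1 array, 48 of 846 values turned sign among differences that had not passed, and none of 54 among those that had. Ranges that crossed 0 included -0.29 to 0.12 for Egr2 in CIR-3 at rest, -0.25 to 0.05 for Egr1 after Hyper-IL-6, -0.04 to 0.03 after GFP-PFC, -0.02 to 0.04 between the stimuli, -0.28 to 0.02 in CIR-1 and -0.20 to 0.10 in CIR-2 at rest; -0.06 to 0.11 for Egr3 and -0.02 to 0.09 for Nab1 between the stimuli; and -0.16 to 0.01 for Egr4 in CIR-2 at rest. Over all genes, calls ranged from 31 to 3673 after Hyper-IL-6 (154), from 42 to 1071 after GFP-PFC (44) and from 66 to 1927 between the stimuli (101). Leaving out 1 array with 2 left in its group, the fit pools the spread over all groups.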
